A study of Macaca fascicularis with 15 samples.

Results

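Cytokines are secreted signals between cells, and chemokines are the cytokines that guide migrating leukocytes. In the retina they are known chiefly from microglia, the resident immune cells, and from the vessels and the pigment epithelium, and their levels rise in uveitis and after injury. Interferons switch on a broad set of antiviral genes, among them the IFI, IFIT and IFITM genes, through the interferon regulatory factors (IRF) and the JAK-STAT pathway, while toll-like receptors (TLR) sense microbial molecules and act through NF-kB. The genes described here were all genes of these families in the deposited tables, taken by name: chemokine ligands and receptors, interleukins and their receptors, toll-like receptors, the tumour necrosis factor (TNF) ligand and receptor superfamilies, interferon-induced genes, interferon regulatory factors, and surface antigens named CD and a number. CD74 and CD36 were left out by the rule. The rule gave 132 of the 12995 genes kept: 17 chemokine ligands, 6 chemokine receptors, 11 interleukins and their binding proteins, 22 interleukin receptors, 4 toll-like receptors, 3 TNF superfamily ligands, 11 TNF receptor superfamily members, 11 interferon-induced genes, 10 IRF genes and their partners, and 37 CD antigens. The rule goes by names alone, so it takes in IL4I1, an amino acid oxidase, and many CD antigens that are not restricted to leukocytes.

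RNA sequencing was done on ocular tissue of wild-type cynomolgus monkeys (Macaca fascicularis), with no treatment in the labels. Tables were analysed for 4 samples of central retina, 3 of peripheral retina, 2 whole retinas and 2 whole eyes. Each macaque sample came from 1 eye, and the labels give no age and no animal. The labels call the eye and retina samples biological replicates and say nothing of that kind on the regions, so p-values reflect how far these libraries differ, and part of that spread can be technical. The study set retinal regions, the retina and the eye side by side. Each value is a signal normalized by the authors by a method not given in the sources used here, and the depth behind each value is unknown. Of 12995 genes, 171 (whole eye replicate 1) to 501 (central retina replicate 1) were listed at 0, and of the 132 members 11 to 23 were listed at 0 in a regional library, against 1 or 2 in a whole retina and 1 or 3 in a whole eye.

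Of the 132 members, 117 reached a mean of 1 in at least 1 group and were tested. The other 15 stayed at or below 0.97 in every library, among them IL1A (interleukin 1 alpha), IL12A (a subunit of interleukin 12), CCL11 (eotaxin) and CCR9 (a gut-homing chemokine receptor). Tests used limma on log2(value + 1) in all 11 libraries, with p-values adjusted by Benjamini and Hochberg over the 11933 genes tested and a threshold of 0.05; "higher" and "lower" counts below are genes past it. Differences on this scale understate the change of genes with low values.

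Marker genes of other cells differed between the groups as follows. Summed levels of 5 stromal markers were 3.06 to 14.3 in the regional libraries, 336 and 366 in the whole retinas and 596 and 416 in the whole eyes. Those of 4 pericyte and smooth muscle markers were 26.0 to 40.5 in the regions, 1181 and 1481 in the whole retinas and 1281 and 658 in the whole eyes. For these markers the samples labelled whole retina stood near the whole eyes, and the regional samples stood far below both. Pigment epithelium markers summed to 230 to 323 in central retina, 591 to 868 in peripheral retina, 2207 and 2085 in whole retinas and 2236 and 2545 in whole eyes. Between the regions this sum followed RLBP1, also listed here as a Müller glia marker, and TTR. The third marker, RPE65, overlapped: the centre had 4.48, 6.35, 5.35 and 6.40, the periphery 7.01, 7.48 and 6.18, and whole retinas 224 and 268. Whether the sum tracks the amount of pigment epithelium between the regions was not tested. Lens and surface epithelium markers set the whole eye apart: 3 lens genes summed to 105 and 105 in whole retinas against 960 and 1118 in whole eyes. Photoreceptor markers were abundant in every library, and ganglion cell markers summed to 1523 to 3031 in central retina and 276 to 504 in peripheral retina. In bulk tissue, fewer cells of a type and less RNA per cell cannot be told apart.

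Members whose names begin alike needed care, because some of them carried values that mirrored each other between libraries of 1 group. A pair of names sharing a start was called mirrored where, in 2 libraries of 1 group, 1 name was at least 4-fold higher in the first library and the other name at least 4-fold higher in the second, with the high values at 2 or more. Of 115 such pairs, 9 were mirrored, and they involve 14 members. CXCL12, a chemoattractant made by stromal and endothelial cells, had 67.2 and 0.29 in the whole retinas and 48.8 and 31.8 in the whole eyes. CXCL14, a chemokine of epithelia, had 77.5 and 0.06 in the whole retinas and 131 and 181 in the whole eyes. CXCL13, the B-cell attracting chemokine, had 48.4 and 346 in the whole retinas, 0.44 and 1.24 in the whole eyes and 0 in all 7 regional libraries. Thus whole retina replicate 2 was high for CXCL13 exactly where it was near 0 for CXCL12 and CXCL14, and the sum of the 3 genes was 193 and 347 in whole retinas against 180 and 214 in whole eyes.

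CD2, a T-cell adhesion receptor, and CD200, an inhibitory ligand of neurons that restrains microglia, alternated in the same way. CD2 had 0, 28.1, 0 and 23.2 in central retina, 28.7, 25.0 and 0 in peripheral retina, 19.5 and 27.4 in whole retinas, and 28.1 and 33.8 in whole eyes. CD200 had 43.3, 0, 43.4 and 0.02 in central retina, 0.04, 0 and 50.5 in peripheral retina, and 0.10 to 0.33 in the 4 whole-tissue libraries. Each regional library was high for 1 of the 2 names and near 0 for the other. CD247, the T-cell receptor zeta chain, had 91.3 and 0.51 in whole retinas and 0.48 and 30.0 in whole eyes. CD248, endosialin of pericytes and fibroblasts, had 1.34 and 13.2 in whole retinas and 13.9 and 0.34 in whole eyes. The monocyte attractant CCL2 and the lymphoid chemokine CCL21 were mirrored in the whole retinas: CCL2 had 0.33 and 11.4 there and CCL21 had 13.9 and 2.91. CCL25 and CCL27 were mirrored in peripheral retina, CXCL1 and CXCL10 were mirrored with CXCL13 in whole retina, and CD226 with CD2 in peripheral retina. Whether these values belong to the names they stand under was not tested, and no level of T cells or of stroma is read from these 14 names.

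**Figure D1:**
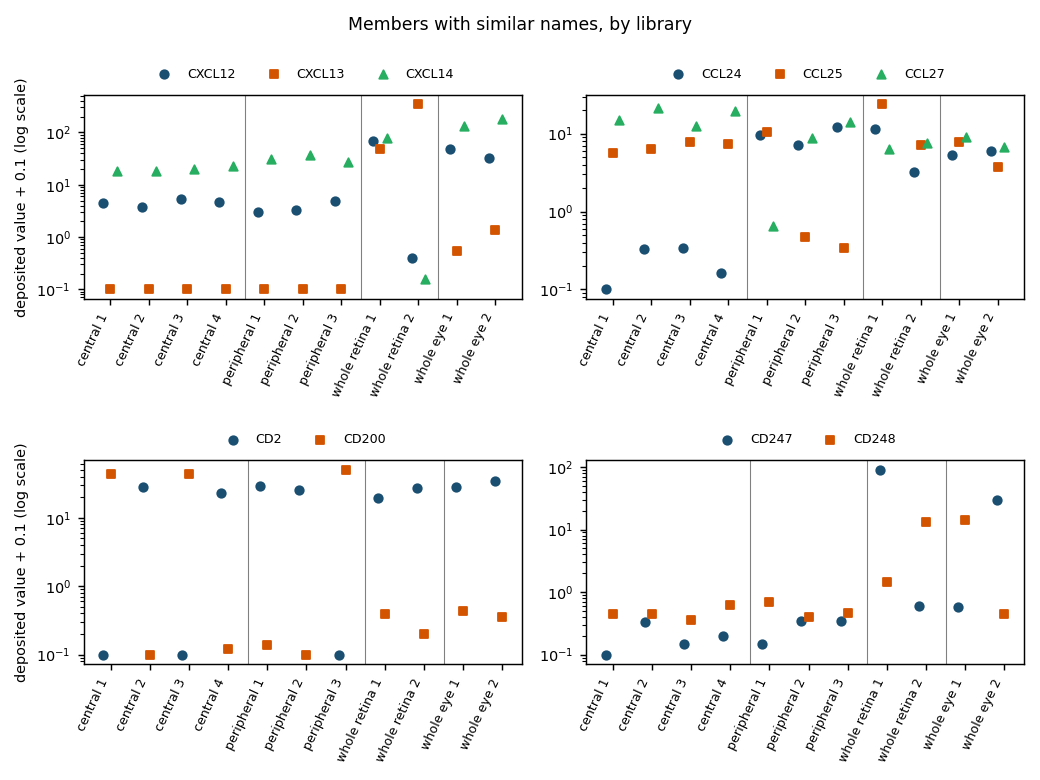
Deposited value + 0.1 (log axis) by library for 4 sets of members with similar names, in central retina, peripheral retina, whole retina and whole eye; each point is 1 library. Within a group, CD2 is near 0 where CD200 is 43.3 or more, and CXCL13 is at 346 in the whole retina library where CXCL12 and CXCL14 are at 0.29 and 0.06.

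Central and peripheral retina were compared to see how the area of the macula differs from the rest of the retina. Among the tested members 4 were higher in central retina (3.42%, against 12.5% of all genes) and 16 were lower (13.7%, against 8.76% of all genes). At an unadjusted p under 0.05 there were 32, and the share of all genes at that cut is not given here or below. The members' median log2 difference was -0.02 and that of all genes -0.01. With each of the 7 regional libraries left out in turn, 1 of the 4 and 5 of the 16 passed every time: TNFRSF21, and CCL24, TNFSF13, TNFRSF11B, IL20RA and IL17RB. Fitted on the 7 regional libraries alone, 10 were higher and 19 lower. Without peripheral replicate 1 the counts were 2 higher and 6 lower, and without peripheral replicate 2 they were 1 and 7; without central replicate 1 or 3 and without peripheral replicate 3, 9 or 10 were lower, and without central replicate 4, 2 were higher.

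Of 8 TNF receptors 2 were higher (25%, against 12.5% of all genes) and 1 lower (12.5%, against 8.76% of all genes). Of 3 TNF superfamily ligands 0 were higher and 1 lower. TNFRSF21 (death receptor 6), a receptor of neurons that controls axon pruning and cell death, had 29.6, 43.9, 37.4 and 40.3 in central retina and 14.01, 8.03 and 11.8 in peripheral retina. All 4 central values lay above all 3 peripheral ones, with a log2 difference of 1.68 (SE 0.19, limma adjusted p = 0.000193). Whole retina had 22.4 and 17.1 and whole eye 21.4 and 17.1, between the regions. TNFSF13 (APRIL), a survival factor for B and plasma cells, had 3.24, 4.42, 3.53 and 4.08 in central retina and 9.74, 9.59 and 11.8 in peripheral retina. The groups did not overlap, and the log2 difference was -1.24 (SE 0.13, limma adjusted p = 0.000133). TNFRSF11B (osteoprotegerin), a decoy receptor for the TNF ligands RANKL and TRAIL, was near 0 in central retina with 0.21, 0.02, 0.08 and 0.06, against 0.90, 1.85 and 1.27 in peripheral retina. That is a log2 difference of -1.08 (SE 0.19, limma adjusted p = 0.00226). Whole retinas (5.86 and 10.7) and whole eyes (10.1 and 10.6) stood above both regions for this gene. TNFRSF25 (death receptor 3), the receptor of the ligand TL1A, averaged 8.32 ± 0.42 in central retina and 5.45 ± 1.51 in peripheral retina (SD, n = 4 and 3; limma adjusted p = 0.0451). It passed with only 1 of the 7 libraries left out, its highest adjusted p being 0.174 without peripheral replicate 1.

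Of 16 chemokine ligands 1 was lower (6.25%, against 8.76% of all genes), and of 5 chemokine receptors 1 was higher (20%, against 12.5% of all genes). CCL24 (eotaxin-2), which attracts eosinophils, had 0, 0.23, 0.24 and 0.06 in central retina and 9.55, 7.13 and 12.1 in peripheral retina. This was the lowest p of all members, with a log2 difference of -3.21 (SE 0.30, limma adjusted p = 9.17e-05). Its name begins like those of CCL25 and CCL27. CCL25 had 5.62, 6.35, 7.82 and 7.28 in central retina and 10.3, 0.37 and 0.24 in peripheral retina. CCL27 had 15.0, 21.4, 12.4 and 19.5 in central retina and 0.55, 8.78 and 14.2 in peripheral retina. Every peripheral library in which CCL24 is high is thus low in CCL25 or in CCL27, and the sum of the 3 was 20.5 to 27.95 in central retina and 16.3 to 26.5 in peripheral retina, so the groups overlap for the sum. The part of the similar names in the CCL24 call was not tested further. CXCR7 (ACKR3), a scavenging receptor for CXCL12, had 6.85, 8.31, 13.7 and 9.67 in central retina and 2.95, 3.21 and 6.16 in peripheral retina. The ranges did not overlap, with a log2 difference of 1.07 (SE 0.26, limma adjusted p = 0.0155), which became 0.0709 without peripheral replicate 2.

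Interleukin receptors gave 5 lower members of 18 (27.8%, against 8.76% of all genes) and 0 higher (against 12.5% of all genes). IL20RA, a chain of the receptors for interleukins of the IL-20 group, had 1.06, 1.17, 0.85 and 0.70 in central retina and 2.81, 1.80 and 2.43 in peripheral retina (log2 difference -0.78, SE 0.14, limma adjusted p = 0.00235). IL17RB, the receptor for interleukin 25, had 0.37, 0.95, 0.78 and 0.75 in central retina and 1.56, 1.83 and 1.53 in peripheral retina (log2 difference -0.63, SE 0.13, limma adjusted p = 0.00655). For both genes every central value was below every peripheral one. The related receptor IL17RC, a chain of the interleukin 17 receptor, had means of 1.51 ± 0.16 (central) and 2.69 ± 0.64 (peripheral; SD, n = 4 and 3; limma adjusted p = 0.0425), and IL17RD, a member of that family that also restrains FGF signals, means of 0.135 ± 0.048 (central) and 0.473 ± 0.032 (peripheral; limma adjusted p = 0.0204). IL1R1, the signalling receptor of interleukin 1, had 2.49, 2.37, 0.94 and 2.08 in central retina and 6.39, 6.28 and 2.49 in peripheral retina, where replicate 3 reached only the highest central value (limma adjusted p = 0.0344, and 0.144 without peripheral replicate 2). IL34, the ligand of the CSF1 receptor on which microglia depend, had 9.69, 9.71, 8.61 and 10.5 in central retina and 13.6, 12.4 and 14.3 in peripheral retina. Those ranges were apart, with a log2 difference of -0.44 (SE 0.13, limma adjusted p = 0.0302, and 0.0936 without peripheral replicate 3). IL6ST (gp130), the shared signalling chain of the interleukin 6 family, had 23.1, 31.6, 23.1 and 18.3 in central and 39.1, 33.2 and 24.3 in peripheral retina, which overlap.

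CD antigens gave 1 higher (2.86%, against 12.5% of all genes) and 7 lower (20%, against 8.76% of all genes) of 35. CD276 (B7-H3), an immune checkpoint ligand, was higher with 15.8, 12.2, 13.3 and 15.6 in central retina, against 9.07, 8.46 and 10.2 in peripheral retina (log2 difference 0.57, SE 0.15, limma adjusted p = 0.0184). CD164, a sialomucin, had 13.99, 20.5, 16.4 and 13.5 in central retina and 25.6, 25.1 and 22.2 in peripheral retina (log2 difference -0.58, SE 0.14, limma adjusted p = 0.0149). CD83, a marker of mature dendritic cells, had 3.5, 3.04, 2.61 and 3.06 in central retina and 6.91, 5.46 and 6.01 in peripheral retina (log2 difference -0.81, SE 0.20, limma adjusted p = 0.0157). For CD46 and CD59, which restrain complement at the cell surface, all 4 central libraries lay below the 3 peripheral ones. CD46, a cofactor for complement cleavage, had 3.28, 7.07, 4.85 and 4.50 in central and 9.71, 8.63 and 7.97 in peripheral retina (log2 difference -0.76, SE 0.18, limma adjusted p = 0.015). CD59, which blocks the membrane attack complex, had 66.2, 84.5, 66.6 and 84.3 in central and 109, 95.3 and 95.1 in peripheral retina (log2 difference -0.41, SE 0.13, limma adjusted p = 0.0436). CD207 (langerin) and CD82, a tetraspanin, passed at limma adjusted p = 0.0407 and 0.0489. CD58, an adhesion ligand of CD2, also passed (limma adjusted p = 0.0313), but peripheral replicate 1 stood at 1.65 and the other two peripheral libraries at 6.84 and 8.86, against 1.27 to 2.03 in central retina. None of these 8 CD antigens kept its call in every leave-one-out fit, and their highest adjusted p over those fits was 0.0602 to 0.159.

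**Figure D2:**
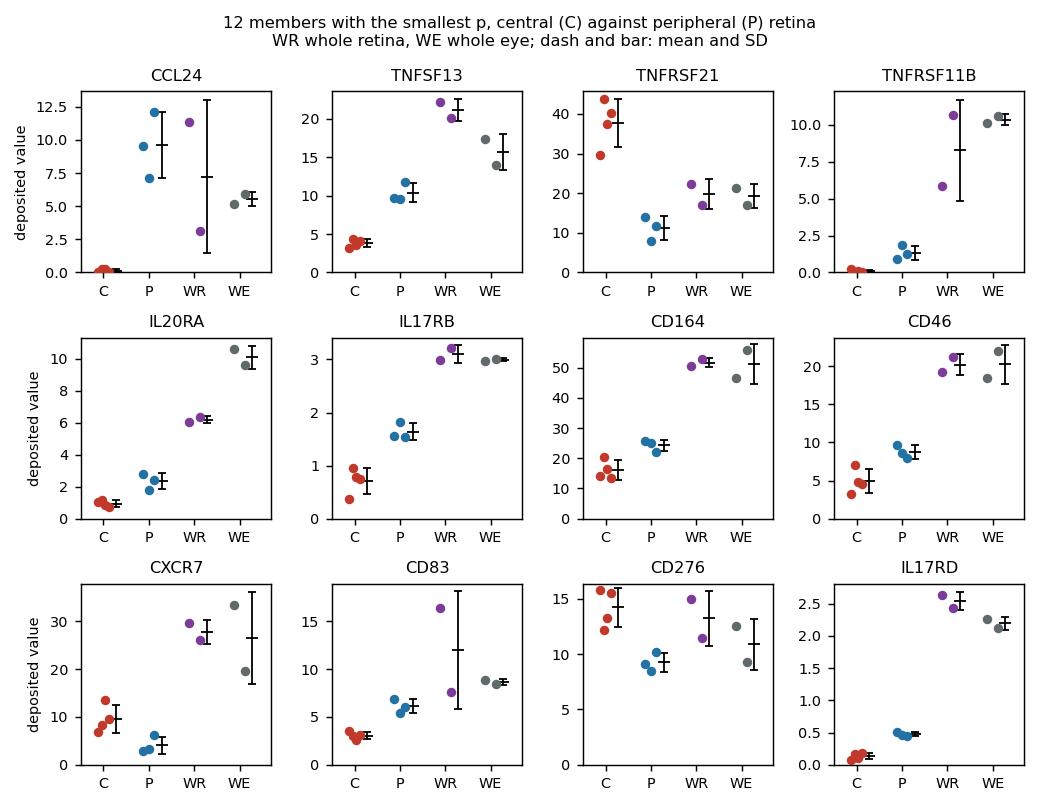
Deposited values per library (points) with mean and SD (dash and bar) for the 12 members with the smallest p in central (C, n = 4) against peripheral (P, n = 3) retina, with 2 whole retinas and 2 whole eyes beside them at the right of each panel. TNFRSF21, CXCR7 and CD276 are higher in central than in peripheral retina and the other 9 are lower.

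No interferon-induced gene, IRF gene or toll-like receptor passed between the regions. Of 11 interferon-induced genes, 10 IRF genes and partners and 4 toll-like receptors, 0 passed by limma, with 1, 3 and 0 at an unadjusted p under 0.05; centring each library on its median let 1 interferon-induced gene pass. IRF3, the kinase-activated factor that starts the interferon response, had 64.0, 56.3, 56.9 and 60.5 in central retina and 51.0, 43.7 and 49.4 in peripheral retina, without overlap but at a limma adjusted p of 0.0704. Other members that did not pass were also apart. In central and peripheral retina IFI35 had 9.14 to 11.1 and 4.77 to 6.14, and IRF5 4.13 to 5.92 and 2.59 to 3.23. IRF2BPL had 43.9 to 53.1 and 35.5 to 38.8, and IFITM1 7.65 to 14.4 and 5.93 to 7.49. TLR3 was lower in the centre, with 0.06 to 0.11 against 0.17 to 0.24. The fit shared 1 variance per gene over 4 groups, and the part of the whole-tissue libraries in it was not tested. The 27 interferon-stimulated genes outside the name rule gave 0 calls and a median log2 difference of -0.05. Of 29 JAK-STAT genes 2 were higher (6.9%, against 12.5% of all genes) and 3 lower (10.3%, against 8.76% of all genes). The kinase JAK1 averaged 49.6 ± 5.49 in central and 34.7 ± 2.82 in peripheral retina (SD, n = 4 and 3), and STAT6, a factor that answers to interleukin 4, was the other higher gene, with 2.44 ± 0.58 in central and 1.04 ± 0.12 in peripheral retina. The lower genes were the kinase JAK2 (3.64 ± 0.62 in central, 5.78 ± 1.06 in peripheral retina), STAT4, a factor that answers to interleukin 12 (0.25 ± 0.28 in central, 1.03 ± 0.31 in peripheral retina), and the feedback inhibitor SOCS2 (1.21 ± 0.22 in central, 2.04 ± 0.31 in peripheral retina). Of 31 tested genes of NF-kB and toll-like receptor signalling 0 were higher and 1 was lower (3.23%, against 8.76% of all genes). That 1 was the kinase CHUK, with 5.13 ± 1.31 in central and 7.67 ± 0.85 in peripheral retina. Microglial markers gave 0 calls and a median log2 difference of -0.40. They summed to 13.2 to 28.3 in central retina and 22.8 to 25.9 in peripheral retina. P2RY12 ranged widely, with 0.74, 3.15, 6.52 and 13.2 in central and 3.96, 3.89 and 1.25 in peripheral retina. For CSF1R, C1QC and FCER1G every central value was below every peripheral one, while the other microglial markers overlapped. Pigment epithelium and Müller glia markers moved with the members that were lower in central retina, 2 of 3 and 3 of 4 tested markers being lower, and ganglion cell markers moved with those that were higher, 4 of 4. RLBP1 is in both the pigment epithelium and the Müller glia list, and the values of RPE65 overlapped between the regions. The part of these cell markers in the results was not tested.

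The whole retina was compared with the whole eye to see what the other ocular tissues add. Of 117 members 2 were higher in whole retina (1.71%, against 0.168% of all genes) and 5 were lower (4.27%, against 2.1% of all genes). An unadjusted p under 0.05 by limma was found for 36 members, without a share of all genes to set it against. Among the lower members, IL20RB, the other chain of the IL-20 group receptors and typical of epithelia, had 4.31 and 6.02 in whole retinas and 39.6 and 36.2 in whole eyes (log2 difference -2.67, SE 0.39, limma adjusted p = 0.00234). CXCL6, a neutrophil-attracting chemokine, had 0.09 and 0.11 in whole retinas and 1.34 and 0.85 in whole eyes (limma adjusted p = 0.00547). Neither range overlapped, and IL20RB passed in every leave-one-out fit. CXCL6 passed in every such fit that tested it, and fell below the filter without whole eye replicate 1. The monocyte chemokine CCL13 had 0.78 and 0.06 in whole retinas and 3.45 and 1.53 in whole eyes (limma adjusted p = 0.0253). CD109, a membrane-anchored protease inhibitor, had 0.75 and 0.55 in whole retinas and 1.51 and 2.70 in whole eyes (limma adjusted p = 0.0264). CCL13 did not pass without whole eye replicate 1 or without whole retina replicate 2, and CD109 did not without whole eye replicate 2. CXCL6, CCL13 and CD109 reached the mean of 1 needed for testing only in whole eye, so their direction was largely set by the filter. IL20RB, CCL13, CD109 and CD97 did not pass with a pseudocount of 0.1, nor did CXCL6, CCL13, CD109 and CD97 where only these 2 groups were fitted. Surface epithelium markers summed to 0.95 and 28.3 in whole retinas and 608 and 561 in whole eyes, and neutrophil and mast cell markers to 4.14 and 3.21 in whole retinas and 74.7 and 63.7 in whole eyes; their part in these results was not tested.

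The 2 higher members were CD97 (ADGRE5), an adhesion receptor of leukocytes, and CXCL13. CD97 had 17.9 and 10.1 in whole retinas and 6.51 and 5.92 in whole eyes (log2 difference 1.00, SE 0.22, limma adjusted p = 0.0352); it passed in 1 of 4 leave-one-out fits. CXCL13, with the mirrored values given above, passed at a limma adjusted p of 0.000116, and with the values of names that share a stem summed, 0 members were higher.

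The 2 whole retinas of this comparison differed from each other in many of these genes. Whole retina replicate 1 was the highest of the 11 libraries for 73 of 117 members (62.4%, against 15.4% of all genes). It was at least 2-fold above replicate 2 on value + 1 in 54 members (46.2%, against 3.64% of all genes), and at least 2-fold below it in 3 (2.56%, against 0.83%). Those 3, CCL2, CXCL13 and CD248, are mirrored names. With the 14 mirrored members left out, replicate 1 was highest for 66 of 103 members (64.1%), at least 2-fold above replicate 2 in 46 (44.7%) and at least 2-fold below it in 0. These are 2 libraries, so the difference between them has no replicate check. With replicate 2 left out, so that replicate 1 alone stood for the whole retina and was assumed to vary like the other groups, 42 members were higher than in whole eye (35.9%, against 4.11% of all genes). With replicate 1 left out, 2 of 110 members tested were higher than in whole eye, CXCL13 and IRF8 (1.82%, against 0.152% of all genes), and 9 were lower (8.18%, against 1.9%).

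Each of the 11 interferon-induced genes was highest in whole retina replicate 1, and 9 were at least 2-fold above replicate 2. IFI6, an interferon-induced mitochondrial protein, had 836 and 159 in whole retinas and 78.0 and 75.4 in whole eyes. IFI27, a common marker of interferon exposure, had 107 and 12.6 in whole retinas and 59.3 and 13.6 in whole eyes, so that whole eye replicate 1 was also high for it. IFIT3 had 54.9 and 15.4 in whole retinas and 16.8 and 13.5 in whole eyes, and IFIT1, which binds viral RNA, 41.1 and 14.2 in whole retinas and 23.2 and 17.7 in whole eyes. IFIT5 was nearly level between the 2 whole retinas, with a ratio of 1.02 on value + 1. How reads shared by the close relatives IFIT1, IFIT2, IFIT3 and IFIT5, or IFITM1 and IFITM3, were counted is not given in the sources used here. Among the factors upstream, IRF1 had 40.1 and 7.18 in whole retinas and 11.4 and 8.0 in whole eyes, and IRF7, the amplifier of the type I interferon response, 24.4 and 2.97 in whole retinas and 3.6 and 2.65 in whole eyes. IRF3 differed less, with 73.4 and 59.9 in whole retinas and 64.8 and 57.4 in whole eyes. All 27 interferon-stimulated genes outside the name rule were likewise highest in replicate 1, and 25 were at least 2-fold above replicate 2. Their summed levels were 698 and 153 in whole retinas, 258 and 169 in whole eyes and 43.2 to 59.1 in the regions.

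Of 16 chemokine ligands 11 were at least 2-fold higher in whole retina replicate 1 than in replicate 2 (68.8%, against 3.64% of all genes), and with the mirrored names left out 5 of 7 were. CCL19, a ligand of CCR7 that draws T cells and dendritic cells to lymphoid tissue, had 178 and 3.06 in whole retinas and 3.01 and 3.33 in whole eyes. CCL5 (RANTES), made by T cells and activated macrophages, had 33.0 and 2.74 in whole retinas and 2.01 and 2.45 in whole eyes. The interferon-gamma induced chemokine CXCL9 had 10.7 and 0.10 in whole retinas and 0 and 0.33 in whole eyes. In each case 3 of the 4 whole-tissue libraries were alike and low, and the regional libraries were at or below 0.25. The receptor CXCR4, the signalling receptor of CXCL12, had 22.9 and 7.73 in whole retinas and 8.40 and 7.66 in whole eyes.

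Of 35 CD antigens, 17 were at least 2-fold higher in replicate 1 than in replicate 2 (48.6%, against 3.64% of all genes) and 21 were highest in replicate 1 (60%, against 15.4% of all genes). With the mirrored names left out, 15 of 30 were at least 2-fold higher. CD274 (PD-L1), an interferon-inducible checkpoint ligand, had 15.1 and 0.58 in whole retinas and 0.39 and 0.38 in whole eyes. CD4, carried by helper T cells and by macrophages, had 21.3 and 5.38 in whole retinas and 3.99 and 3.76 in whole eyes. CD48, found on most leukocytes, had 42.1 and 7.45 in whole retinas and 8.02 and 9.03 in whole eyes. CD52, a small antigen of lymphocytes, had 78.2 and 13.9 in whole retinas and 13.1 and 20.5 in whole eyes. Replicate 1 was the high library each time. IRF8, a factor of microglia and other myeloid cells, had 21.4 and 4.55 in whole retinas and 2.51 and 1.94 in whole eyes, and TLR4, the receptor for endotoxin, 3.13 and 1.04 in whole retinas and 0.87 and 1.00 in whole eyes. Other members were closer between the 2 whole retinas. CD63, a lysosomal tetraspanin, had 320 and 317 in whole retinas and 431 and 312 in whole eyes, and CD59 had 216 and 260 in whole retinas and 293 and 276 in whole eyes. CD47, the signal that stops phagocytosis, had 26.0 and 35.7 in whole retinas and 33.6 and 39.7 in whole eyes, so that replicate 1 was its lowest library of the 4.

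**Figure D3:**
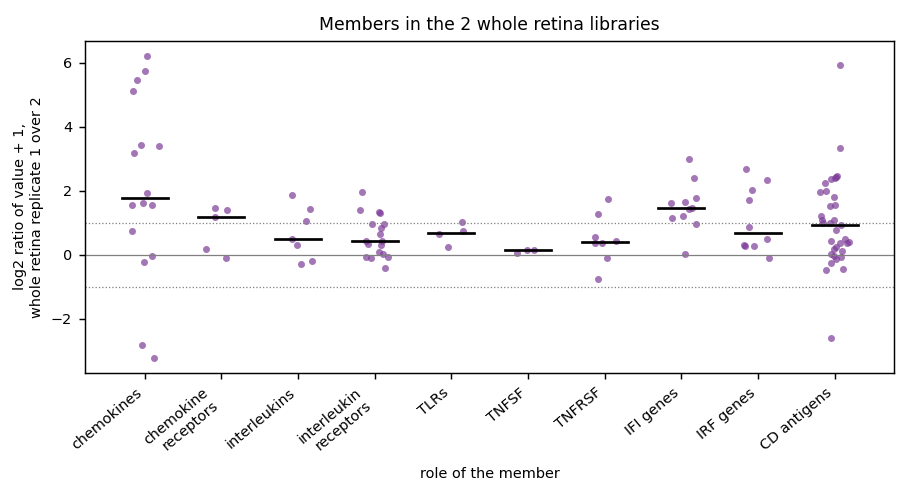
Log2 ratio of value + 1 in whole retina replicate 1 over replicate 2 for the 117 tested members by role; each point is 1 gene, bars are medians and dotted lines mark 2-fold. Points of interferon-induced genes lie at or above 0, with 9 of 11 past 2-fold.

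Markers of other cells in these 2 libraries moved in part with the members. The 8 microglia and macrophage genes summed to 404 and 138 in whole retinas and 161 and 112 in whole eyes, all 8 being higher in replicate 1 than in replicate 2. Of the T and NK cell markers outside the name rule, CD3G, a chain of the T-cell receptor complex, had 4.84 and 0.36 in whole retinas and 0.18 and 0.37 in whole eyes. The other, NKG7 of cytotoxic granules, had 9.46 and 1.06 in whole retinas and 1.70 and 1.04 in whole eyes. Blood went the other way, with summed levels of 110 and 383 in whole retinas and 1497 and 2495 in whole eyes. Neutrophil and mast cell markers were low in both whole retinas, and the stromal, pigment epithelium and lens sums given above were alike in both. Within the stromal sum the genes differed in direction. COL1A1, COL1A2 and COL3A1 were higher in replicate 1 (COL3A1 51.6 and 21.1), and DCN and LUM were lower there (DCN 116 and 201). Surface epithelium markers were also low in replicate 1, with the sums of 0.95 and 28.3 in whole retinas given above. Of 5 endothelial genes 4 were higher in replicate 1 than in replicate 2 and highest there of the 11 libraries, among them VWF, with 16.6 and 9.07 in whole retinas and 7.28 and 4.48 in whole eyes. Of 32 NF-kB and toll-like receptor genes 4 were at least 2-fold higher in replicate 1 (12.5%, against 3.64% of all genes) and 17 were highest there (53.1%, against 15.4%). Of 29 JAK-STAT genes 6 were at least 2-fold higher in replicate 1 (20.7%) and 15 were highest there (51.7%). The part of these cells in the members' values was not tested.

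**Figure D4:**
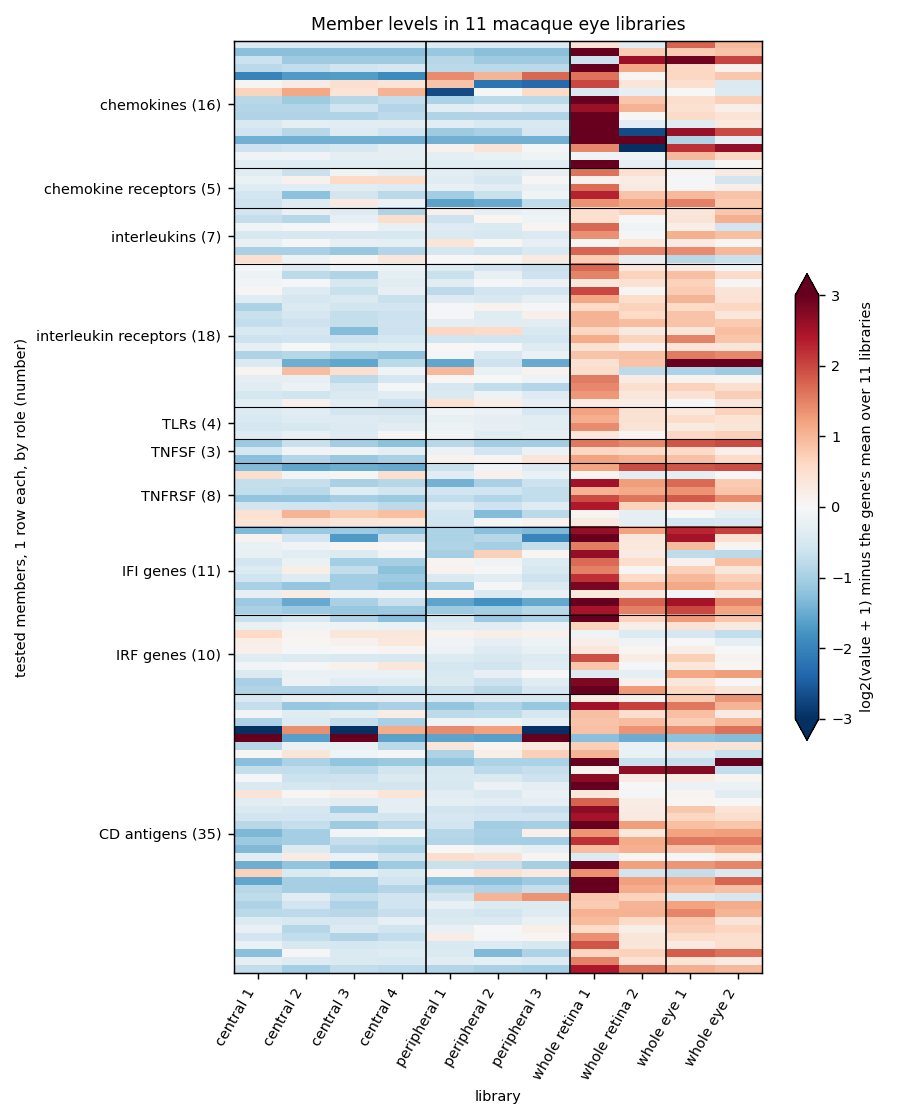
Log2(value + 1) minus each gene's mean over 11 libraries for the 117 tested members (rows, grouped by role) in 11 libraries (columns); colours end at -3 and 3 and values beyond them take the end colour. The whole retina replicate 1 column is the darkest red, and the 7 regional columns are mostly below the gene's mean.

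Both regions were set against the whole retina, with the same 2 whole retina libraries in each comparison. In central retina 2 of 117 members were higher (1.71%, against 18.9% of all genes) and 87 lower (74.4%, against 29.7% of all genes). In peripheral retina 0 were higher (against 9.83% of all genes) and 81 lower (69.2%, against 24.3% of all genes). Genes whose means stayed below 1 in both regions passed the filter only through whole tissue, so they could hardly be called higher, and their direction was largely set by the filter. The shares called lower, of members and of all genes, include such genes and were not computed without them. At an unadjusted p under 0.05, limma gave 93 members in central and 92 in peripheral retina, again without a share of all genes. Past the adjusted threshold, 77 members were lower in both regions. The median log2 difference of the members was -1.43 in central and -1.28 in peripheral retina, and that of all genes was -0.10 and -0.08. Quantile normalization moved the all-gene medians to 0.12 and 0.16. Of all genes, 2257 were called higher and 3549 lower in central retina, against 3681 and 2502 under quantile normalization, and 1173 and 2904 in peripheral retina, against 3143 and 2022. The members stayed mostly lower under it, with 4 higher and 79 lower in central and 3 higher and 66 lower in peripheral retina, and their medians lay 1.20 and 1.09 below that of all genes.

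The members did not all rest on whole retina replicate 1. Without it, 65 of 110 members tested were lower in central retina (against 25.8% of all genes), 64 of them among the 87, and 61 of 110 in peripheral retina (against 19.3%), 60 of them among the 81. The receptor TNFRSF1A, through which TNF signals in most cells, had the lowest p in both comparisons, with 4.30, 4.33, 4.87 and 4.54 in central retina, 6.12, 5.55 and 6.23 in peripheral retina, and 45.7 and 35.2 in whole retina. The log2 difference was -2.90 in central (SE 0.15, limma adjusted p = 7.8e-08) and -2.56 in peripheral retina (SE 0.15, limma adjusted p = 5.05e-07). CD14, the endotoxin co-receptor of monocytes and macrophages, had 4.34, 2.97, 3.04 and 3.46 in central retina, 2.83, 3.6 and 2.97 in peripheral retina, and 49.7 and 35.0 in whole retina. Its log2 differences were -3.27 in central and -3.37 in peripheral retina. IL34 had 9.69, 9.71, 8.61 and 10.5 in central and 13.6, 12.4 and 14.3 in peripheral retina, against 70.3 and 56.9 in whole retina, with log2 differences of -2.60 (central) and -2.16 (peripheral). TNFSF10 (TRAIL), a ligand of death receptors, had 1.55, 2.42, 1.64 and 1.31 in central and 2.02, 1.63 and 1.63 in peripheral retina, against 15.3 and 13.7 in whole retina, with log2 differences of -2.52 (central) and -2.49 (peripheral). CD97 ranged over 0.75 to 1.12 in the centre and 0.75 to 0.93 in the periphery, against 17.9 and 10.1 in whole retina, with log2 differences of -2.86 (central) and -2.99 (peripheral). For these 5 genes no regional library came near either whole retina, and all 5 passed with every library left out in turn.

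By role, 10 of 16 chemokine ligands, 4 of 5 chemokine receptors, 3 of 7 interleukins and binding proteins, 16 of 18 interleukin receptors, all 4 toll-like receptors, all 3 TNF superfamily ligands, 5 of 8 TNF receptors, 10 of 11 interferon-induced genes, 5 of 10 IRF genes and partners and 27 of 35 CD antigens were lower in central than in whole retina. In peripheral retina the lower members were 8 chemokine ligands, 4 chemokine receptors, 3 interleukins and binding proteins, 14 interleukin receptors, 4 toll-like receptors, 3 TNF superfamily ligands, 6 TNF receptors, 8 interferon-induced genes, 7 IRF genes and partners and 24 CD antigens. Of all genes, 29.7% were lower in central and 24.3% in peripheral retina. The share was smallest for interleukins and binding proteins, 42.9% in both regions. TLR2, TLR3 and TLR4, which sense bacterial lipoproteins, double-stranded RNA and endotoxin, averaged 0.29 ± 0.11, 0.09 ± 0.03 and 0.15 ± 0.07 in central retina and 0.48 ± 0.20, 0.20 ± 0.04 and 0.30 ± 0.08 in peripheral retina (SD, n = 4 and 3), against 2.25 ± 1.16, 1.53 ± 0.78 and 2.08 ± 1.48 in whole retina (SD, n = 2). All 4 toll-like receptors were below 1 in every regional library, as were CCL5, CCL8, CCL19, CD4, CD53, IL1R2 and IRF8. Such members reached the mean of 1 needed for testing only through the whole-tissue groups. Their direction against whole retina was thus largely set by the filter. Of the interferon-induced genes called lower, 6 of the 10 in central and 6 of the 8 in peripheral retina kept their call with each library left out. IFI6, with 115, 105.5, 99.6 and 123 in central retina and 836 and 159 in whole retina, had a limma adjusted p of 0.0247 that became 0.382 without whole retina replicate 1. For IFI27 the values were 0.0199 and 0.289 without that library.

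CD81, a tetraspanin of most cells including Müller glia and pigment epithelium, had 185, 177, 175 and 208 in central and 183, 181 and 215 in peripheral retina, against 477 and 367 in whole retina (limma adjusted p = 0.000129 for the centre and 0.000433 for the periphery). CD44, the hyaluronan receptor, ranged over 1.36 to 2.15 in the centre and 1.48 to 1.77 in the periphery, against 22.2 and 9.93 in whole retina. CD9, another tetraspanin, ranged over 7.12 to 17.6 in the centre and 6.73 to 13.4 in the periphery, against 29.5 and 30.6 in whole retina. TNFRSF21 was higher in central than in whole retina (log2 difference 0.90, limma adjusted p = 0.00537) and lower in peripheral than in whole retina (log2 difference -0.78, limma adjusted p = 0.0219). The first lost its call without whole retina replicate 2 (limma adjusted p = 0.0672) and the second without replicate 1 (0.152). IRF2BP1, a partner of IRF2 named here because only 2 members were higher, had 41.1, 28.5, 34.6 and 34.7 in central retina against 25.1 and 20.2 in whole retina. Its limma adjusted p of 0.00678 became 0.0831 without whole retina replicate 2. CD47 ranged over 23.5 to 41.0 in central, 37.0 to 50.4 in peripheral and 26.0 and 35.7 in whole retina, with limma adjusted p = 0.941 for the centre and 0.102 for the periphery.

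Of 27 interferon-stimulated genes outside the rule 23 were lower in each region, and of 8 microglial genes 7 were, with median log2 differences of -3.46 in central and -3.17 in peripheral retina. JAK-STAT genes gave 2 higher and 13 lower of 29 in central and 0 higher and 14 lower in peripheral retina. NF-kB and toll-like receptor genes gave 2 and 15, and 1 and 14, of 31. The background for these lists is the share of all tested genes past the threshold. For lower calls that share was 29.7% with the centre and 24.3% with the periphery. For higher calls it was 18.9% and 9.83%. All 5 stromal and all 4 pericyte and smooth muscle markers were lower in both regions as well, with median log2 differences of -5.00 (stromal) and -4.80 (pericyte and smooth muscle) in central retina and -4.82 and -4.87 in peripheral retina. Their part in the members' results was not tested.

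**Figure D5:**
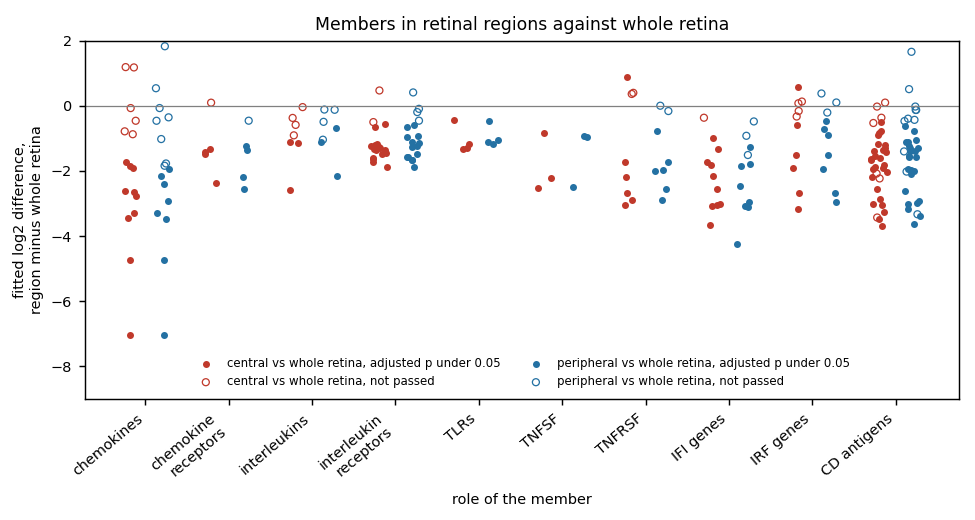
Fitted log2 difference of region minus whole retina for the 117 tested members by role, central retina in red and peripheral retina in blue; filled points have a limma adjusted p under 0.05. Both comparisons use the same 2 whole retina libraries, and 87 and 81 filled points lie below 0.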

How the data were processed

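Each of the 11 deposited tables lists 13083 rows, and per the file headers holds 1 normalized signal value per gene for 1 library; the authors' normalization is not given in the sources used here. The submitters' processing notes name the aligner GSNAP and the counting tool HTSeq without version, and the genome build and annotation are not given, so no coordinates are printed. Of 15 records, 4 (a second record of each whole eye and whole retina) were not analysed here. Per table, 26 rows marked ND, 1 empty row and 61 exact duplicates were dropped, leaving 12995 genes. Of 136 rows matching the name rule, CD74, CD36 and 2 duplicates were dropped; 57 members share the start of their name with another, and 125 of 132 match a current symbol of the species in RefSeq.

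From these values, log2(value + 1) was fitted with limma 3.58.1 (R 4.3.3), 4 groups sharing 1 variance per gene with a trend on level, for the 11933 genes whose mean reached 1 in any group. Tests are two-sided, with Benjamini-Hochberg adjustment over all genes tested. The design had named this test for normalized values. The scripts were tested on simulated tables. Members, marker lists and tests were chosen with earlier results of these data known. Members named with values are, per role, up to 4 (8 CD antigens) with the smallest p past the threshold whose higher group mean reached 1, the 4 with the smallest p in each comparison with whole retina, the 14 mirrored ones and a set of 37 well-known genes, of which 8 (IL1B, IL6, IL33, IFI30, CD24, CD34, CD68 and CD163) were not analysed here and not all others are printed; 1 gene that met the rule is not reported here. Others were added after their values were seen: IL17RD, IRF2BP1, genes whose regional ranges were apart without a call (IFI35, IFITM1, IRF5 and IRF2BPL), and the genes that illustrate the gap between the whole retinas (IFIT3, IFIT5, IRF7, CCL19, CCL5, CXCL9, CD274, CD48 and CD52). Of the marker lists, B and plasma cells had 0 genes in the tables. Python 3.11.15, numpy 2.4.6, pandas 2.3.3 and matplotlib 3.10.9 made tables and plots.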

Additional observations from a re-analysis of the deposited data

Results flagged for a closer look

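Among the named members of the 4 central retina libraries, 1 library stood far from the other 3 in 3 genes, all of them at low values. For values without ties, chance alone flags about 1 in 20 of the 58 groups looked at. Where 3 libraries were at 0, as for CCL2 and CXCL1, any other value is flagged, so that rate does not apply. The monocyte chemokine CCL2 had 0.33 in replicate 1 and 0 in the other three. CD109 had 0.05 in replicate 1 and 0.21 to 0.24 in the others. The neutrophil chemokine CXCL1 had 0.08 in replicate 4 and 0 in the others.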

How the results depend on the processing

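Counts of members called moved by more than 1.5 times as follows. In central against peripheral retina, 10 members were higher (4 in the reported fit) with only these 2 groups fitted and 1 with similar names left out, which also left 9 lower (16 reported). Leaving out 1 library each gave 1 to 5 higher and 6 to 17 lower. In whole retina against whole eye, 1 was higher (2 reported) with a pseudocount of 0.1, 4 with quantile normalization, 1 with a replicate block, 0 with name stems summed, 0 with similar names left out and 1 with the mirrored members left out; 2 were lower (5 reported) with a pseudocount of 0.1, 3 with quantile normalization, 2 with only these 2 groups and 1 with the block. Leaving out 1 library each gave 1 to 42 higher, the highest without whole retina replicate 2, and 3 to 9 lower, the highest without whole retina replicate 1. In central against whole retina, 4 were higher (2 reported) with quantile normalization, 1 with name stems summed and 0 with similar names left out, and 50 were lower (87 reported) with the block and 54 with similar names left out. Leaving out 1 library each gave 0 to 5 higher and 65 to 91 lower, both ends from whole retina replicates 1 and 2. In peripheral against whole retina, 3 were higher (0 reported) with quantile normalization and 2 with median centring, and 48 were lower (81 reported) with the block and 50 with similar names left out; leaving out 1 library each gave 0 to 3 higher and 61 to 89 lower. Fewer genes remain by construction where similar names are left out or stems summed; for the others the cause was not tested. Leaving out the mirrored members was chosen after seeing the data.

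For 2 of the 3 replicate numbers, the same-numbered regional libraries were not the most alike. Deviations of same-numbered central and peripheral libraries correlated at -0.14, -0.06 and 0.36. Central replicate 1 correlated best with peripheral replicate 2 (0.36), and central replicate 2 with peripheral replicate 1 (0.35). Whether regional samples came in pairs from 1 animal was not tested, and the reported fit treats the libraries as independent. The replicate block, added with the number as a term, gave 4 higher and 11 lower members in central against peripheral retina. It used the numbers as given, so it cannot show what a pairing across numbers would change. For 26 calls of single members, 342 alternatives gave 247 calls that held and 95 that did not pass, with 0 changes of direction; 15 of the 95 came from the block, 12 and 11 from leaving out peripheral replicates 1 and 2, and 6 from the absence of a filter on low values, among them CD58, CD82, CD207, IL17RC, IL1R1 and TNFRSF25. Depth is unknown, so members listed at 0 may be unsampled.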
